A study of Balaenoptera physalus with 6 samples.

Results

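Immune receptor and cytokine signalling genes were taken from a list of CpG sites whose methylation differed between fin whale skin samples with a high and a low load of organochlorine contaminants. Membership was decided by gene name alone: interleukins and their receptors, tumour necrosis factor ligands, receptors and induced proteins, chemokines and their receptors, colony-stimulating factors, CD antigens, interferon and toll-like receptor names, NLR sensors, JAK and TRAF transducers, SOCS inhibitors, and the STAT, IRF, NFATC, NFKB and REL transcription factors. The pattern matched 81 of the 6197 gene names on the list, and these genes carried 178 of the 18544 listed CpG sites that name a gene, out of 32682 listed in all. The sites lay on 58 scaffolds.

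Methylation was read by reduced representation bisulfite sequencing (RRBS) of skin DNA of Balaenoptera physalus from the Mediterranean. In this assay the enzyme MspI cuts at CCGG, bisulfite converts unmethylated cytosine, and the methylation level of a site is the share of its reads that still show a cytosine. The labels placed 3 samples in a group of high organochlorine (OC) concentration and 3 in a group of low OC concentration, and gave no age or sex and nothing on whether the samples came from separate animals. High OC titles all began with BPT and low OC titles with BPL, and whatever these prefixes stand for cannot be told apart from contaminant load.

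Cytokines and chemokines are secreted proteins that immune and epithelial cells use to signal to each other. They act through receptors on the receiving cell, which for many cytokines are paired chains. Many, but not all, interleukin receptors pass the signal to JAK kinases, and many receptors of the tumour necrosis factor family pass it to TRAF adaptors. Both routes end in transcription factors, and inhibitors such as SOCS1 and TNFAIP3 are switched on by the signal and damp it. In mammals, methylation of a CpG-rich promoter generally goes with low transcription, whereas gene bodies are often highly methylated in expressed genes. Transcript levels were not analysed here.

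The authors had put a site on the list when the group means differed by at least 0.1 as a fraction, with a p-value of at most 0.05, in these same 6 samples. Levels and differences at listed sites are therefore given as a description, with no test. At all 178 sites the 3 high OC levels lay wholly above or wholly below the 3 low OC levels, as at 99.5% of the other listed sites that name a gene. Reads per site and sample ran from 5 to 62, with a median of 12, and only 56 sites had at least 10 reads in every sample. Skin DNA comes from a mixture of cells, so a different share of immune cells and a different level within each cell cannot be told apart.

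The immune signalling genes differed in no single direction. Of their 178 sites, 102 (57.3%) were higher in high OC and 76 were lower, beside 52.9% higher among all listed CpG sites that name a gene. By gene, 31 held only higher sites, 30 only lower sites and 20 held both. The 102 higher sites averaged 73.1, 72.9 and 72.8% in the high OC samples and 52.6, 52.2 and 52.7% in the low OC samples. The 76 lower sites averaged 49.0, 48.4 and 48.1% in high OC and 67.2, 68.9 and 67.1% in low OC. No sample stood apart from its group in these means. This is largely fixed by the choice of sites, all listed for separating these same groups, and does not show how alike the samples were. The median absolute difference was 17 percentage points (quartiles 13 and 25.8) against 18 (14 and 26) at the other gene sites, and the authors classed 14 sites (7.87%) as strongly different, beside 12% of all listed sites that name a gene. Sites with a mean below 20% numbered 35, sites between 20 and 80% numbered 72, and sites above 80% numbered 71.

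**Figure D1:**
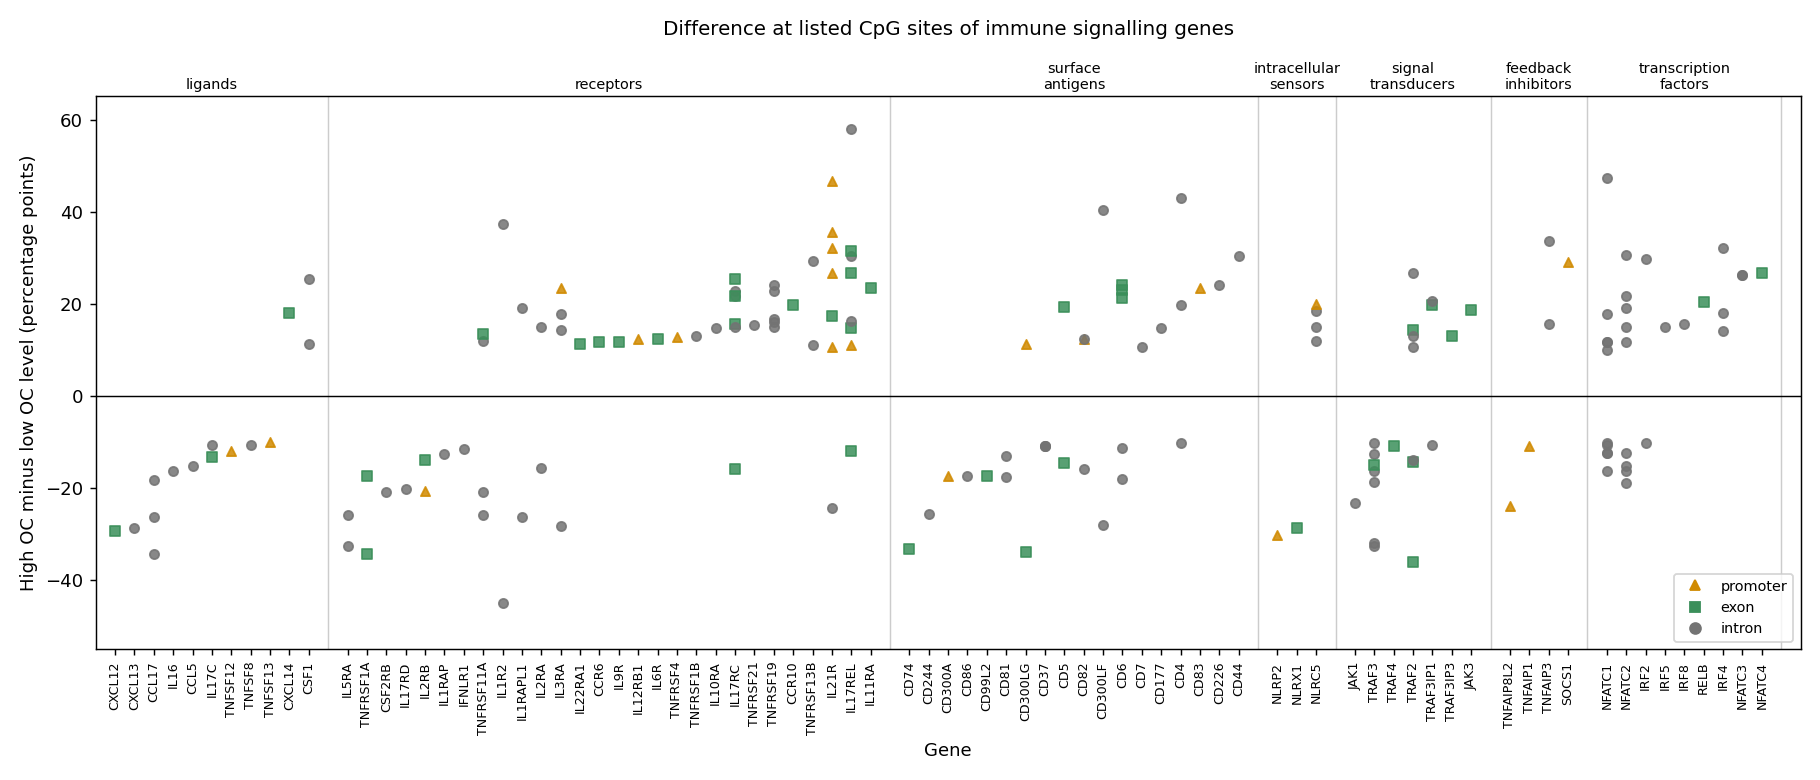
High OC minus low OC methylation level (percentage points) at 173 of the 178 listed CpG sites (80 genes), with genes on the horizontal axis grouped by role and symbols for promoter, exon and intron. Points above the line are higher in high OC; the highest point is an intron site of IL17REL at 58.0 points, and receptors have 45 points above and 19 below the line while ligands have 3 above and 12 below.

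Sorted into roles by gene name, the receptors and the transcription factors held mostly higher sites and the ligands mostly lower ones, as the bar plot of sites by role shows. The 28 receptor genes had 45 higher (70.3%) and 19 lower sites, and the 9 transcription factor genes had 20 higher (66.7%) and 10 lower. Among all listed CpG sites that name a gene, 52.9% were higher. IL17REL, IL21R, IL17RC and TNFRSF19 alone held 7, 6, 6 and 5 of the higher receptor sites, and 1, 1, 1 and 0 of the lower ones. The 11 ligand genes had 3 higher and 12 lower sites, with 9 genes lower at every listed site and 2 higher at every listed site. Signal transducers had 8 higher and 13 lower sites over 7 genes. Surface antigens were split, with 19 higher and 18 lower sites over 19 genes. The intracellular sensors, with 4 higher and 2 lower sites over 3 genes, and the feedback inhibitors, with 3 higher and 2 lower over 4 genes, had few sites. These counts describe sites chosen for a difference, and several sites of a gene often lie on the same reads.

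**Figure D2:**
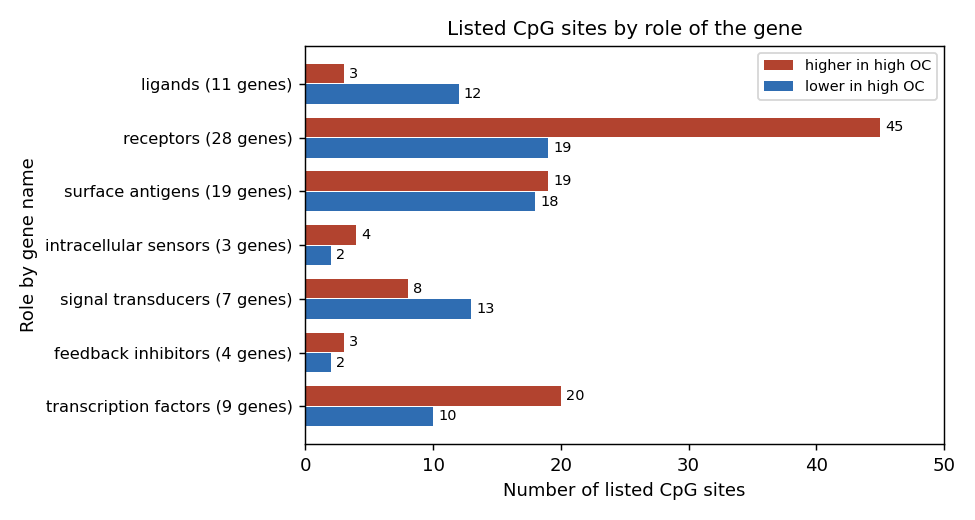
Number of listed CpG sites that were higher (red) or lower (blue) in high OC, by role of the gene, with the number of genes beside each role. Receptors hold 45 higher against 19 lower sites and ligands hold 3 against 12.

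IL21R, the receptor chain for the T cell cytokine interleukin 21, had more listed promoter sites than any other member, and all of them were higher in high OC. It had 7 listed sites on scaffold NW_006728570_1, and 5 of these lay in its promoter between positions 3075555 and 3076047, a stretch of 492 bases. Averaged over those 5 sites, the level was 58.6, 42.6 and 46.6% in the high OC samples and 18.0, 13.2 and 25.6% in the low OC samples. The lowest high OC sample was above the highest low OC sample, which follows from the choice of sites, since the groups overlapped at none of them. The group means were 49.3 ± 8.3% and 18.9 ± 6.3% (SD, n = 3), a difference of 30.3 points, with 6 to 59 reads behind each value. The pair of promoter sites with at least 10 reads in every sample, at 3075555 and 3075590, differed by less, 18.7 points on average. Over all 7 sites of the gene the mean difference was 20.7 points, and it was 7.58 points over the 4 sites with at least 10 reads in every sample and 12.9 points with 1 site per 1 kb.

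Within the IL21R promoter the upstream pair of sites was lower in level than the 3 downstream sites in both groups. The first site, at 3075555, was read at 46, 20 and 28% in high OC and at 5, 0 and 9% in low OC, with 22 to 59 reads. The site at 3075590 was at 20, 15 and 22% against 11, 5 and 9%. Its reads, 30, 20 and 27 in high OC and 19, 22 and 11 in low OC, rose and fell with those at 3075555. Those were 59, 40 and 54 in high OC and 38, 43 and 22 in low OC. Whether the 2 sites share reads, or fragments were counted more than once at the first, was not tested. At 3075967 the levels were 73, 50 and 50% against 0, 11 and 22%, the largest difference at any listed promoter site of these genes, 46.7 points. Here 0 methylated of 14 reads in low OC sample 1 allows a level of up to 21.4%, and 4 of 8 reads in high OC sample 3 has an exact 95% binomial interval of 15.7 to 84.3%. The cytosine on the opposite strand of the same CpG, at 3075968, was at 69, 60 and 50% against 27, 7 and 38%. The site at 3076047 was at 85, 68 and 83% against 47, 43 and 50%. Its read counts equalled those at 3075968 in every sample but high OC sample 2, with 19 against 20 reads. The 2 sites may therefore share reads. The last 3 of these sites were also annotated as exon.

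Outside the promoter, IL21R differed in either direction. An intron site at 3079049 was lower in high OC, at 14, 24 and 11% against 55, 35 and 32%. An exon site at 3109302 was higher, at 92, 91 and 94% against 85, 73 and 67%. A cytosine outside CpG, in the CHH context (H is any base but G), was listed upstream in the promoter at 3075310. It was at 0% in all 3 high OC samples and at 11, 17 and 14% in the low OC samples, on only 5 to 10 reads. This is the opposite direction to the promoter CpG sites, but 0 of 5 reads in high OC sample 1 allows a level of up to 60%.

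Of the interleukin 17 receptor genes, IL17REL and IL17RC were also mostly higher in high OC, while IL17RD was lower at its 1 site. This cytokine system drives inflammatory responses of epithelia, skin included. Its 4 member genes, IL17C, IL17RC, IL17RD and IL17REL, held 13 higher and 5 lower sites. All of the higher sites were in IL17REL and IL17RC, and IL17C and IL17RD were lower throughout. IL17REL, which encodes a protein resembling the receptor chain IL17RE, was higher at 7 of 8 sites on scaffold NW_006729790_1, and these 7 averaged 75.9 ± 2.2% in high OC and 49.0 ± 3.4% in low OC (SD, n = 3).

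One intron site of IL17REL, at 11542673, was the only member site that differed by at least 50 points. It was at 94, 60 and 93% in high OC and at 20, 28 and 25% in low OC, with 12 to 18 reads. High OC sample 2 lay well below its group's other samples, though above every low OC sample, and its 9 of 15 methylated reads have an exact 95% interval of 32.3 to 83.7%. The group means were 82.3 ± 19.3% and 24.3 ± 4.0% (SD, n = 3). The next intron site, at 11543384, was at 33, 20 and 38% against 0% in all low OC samples, on 5 to 10 reads.

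The promoter site of IL17REL at 11549018 was better covered, with 12 to 44 reads, and differed less, at 83, 89 and 95% against 78, 79 and 77%. Exon sites at 11541955, 11544452 and 11544663 were higher by 14.7, 31.3 and 26.7 points. The intron site at 11545238 was at 100% in every high OC sample and at 83, 79 and 89% in low OC. Only 22 bases on, the exon site at 11545260 was the single lower site, at 93, 86 and 85% against 100% in all low OC samples.

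IL17RC, a receptor subunit for interleukins 17A and 17F, had 7 sites within 778 bases of scaffold NW_006731900_1, of which 6 were higher. These 6 averaged 70.0, 68.7 and 65.8% in high OC and 48.8, 43.8 and 50.8% in low OC, with group means of 68.2 ± 2.1% and 47.8 ± 3.6% (SD, n = 3). Among them, 26900613, 26900703 and 26900710 had identical read counts in every sample, so they do not count as separate observations. The last 4 sites, from 26900831 on, were also annotated to the promoter of the neighbouring gene CRELD1, so their gene cannot be assigned. The lower site, at 26900831, was at 33, 40 and 33% against 60, 44 and 50%, and the site 26 bases further on was higher, at 56, 40 and 42% against 20, 17 and 33%. Read counts at this opposed pair were identical in every sample as well.

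**Figure D3:**
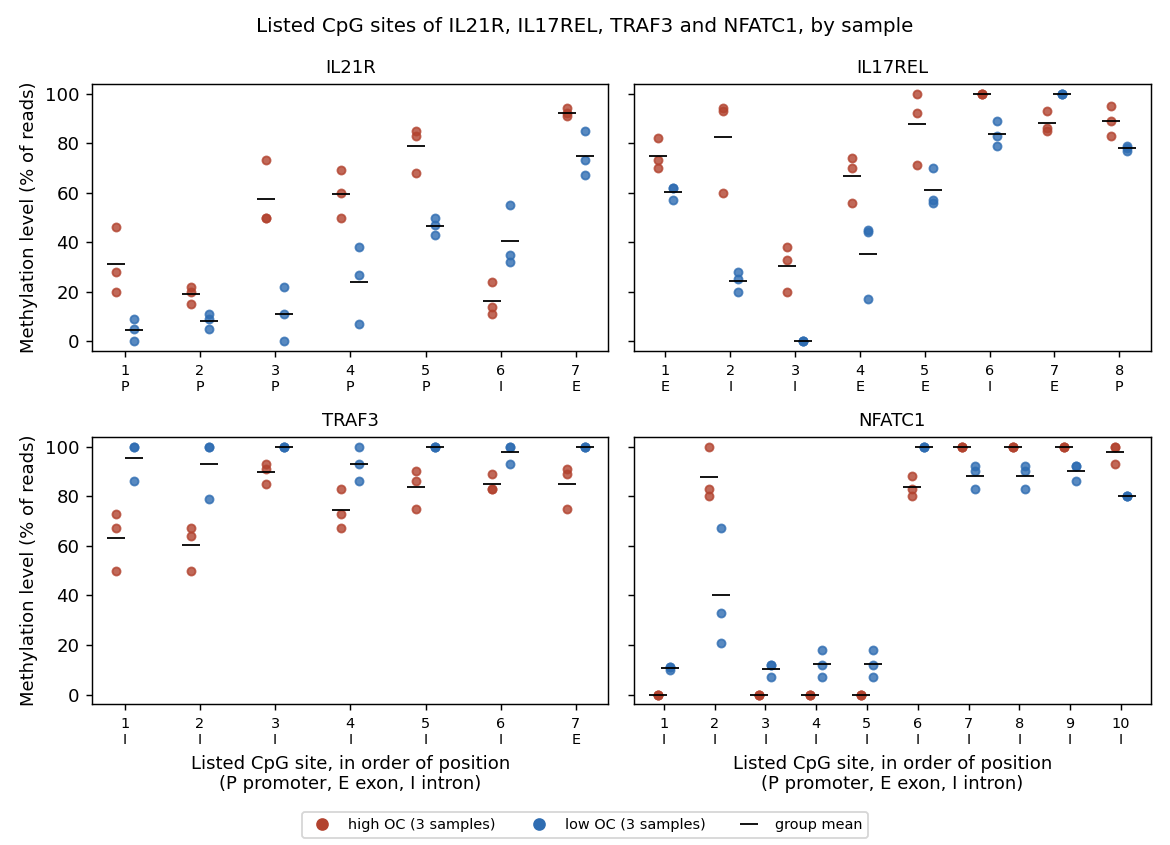
Methylation level (% of reads) at every listed CpG site of IL21R, IL17REL, TRAF3 and NFATC1 in order of position, with each sample as a point and group means as bars. The 5 promoter sites of IL21R are higher in high OC, the 7 sites of TRAF3 are all lower, and the 10 sites of NFATC1 are split 5 to 5.

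Other interleukin receptor chains did not share a direction. IL2RB, the beta chain for interleukins 2 and 15, was lower in high OC at both of its sites. Its promoter site at 684101 was at 15, 0 and 18% against 33, 33 and 29%, and its exon site at 700880 was at 80, 92 and 86% against 100% in all low OC samples. IL12RB1, a chain shared by the receptors for interleukins 12 and 23, was higher at its one promoter site, at 94, 94 and 95% against 86, 85 and 75%. That site had 26 to 44 reads, more than most members, and group means of 94.3 ± 0.58% and 82.0 ± 6.1% (SD, n = 3).

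IL3RA, the alpha chain for interleukin 3, was higher at 3 of 4 sites. Its promoter site at 2932881, which is also annotated as intron, was at 100, 100 and 88% against 85, 62 and 71%. Its lower site, an intron site at 2909979, was at 46, 38 and 56% against 85, 73 and 67%. The other listed chains of that receptor family, IL5RA and the shared beta chain CSF2RB, were lower at all of their sites, so the family held 3 higher and 4 lower sites over 3 genes. The 2 IL5RA sites, 12 bases apart, averaged 53.0 ± 4.4% in high OC and 82.3 ± 3.6% in low OC (SD, n = 3).

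The decoy receptor IL1R2, which binds interleukin 1 without signalling, had the most opposed pair of close sites. It lies outside the rule for named genes and was chosen after its values were seen, as was IL5RA. At 275695 the levels were 81, 77 and 80% in high OC and 38, 55 and 33% in low OC. At 275788, 93 bases away, they were 31, 36 and 20% against 75, 91 and 56%. The mean of both sites, 54.2 ± 3.6% and 58.0 ± 14.3% (SD, n = 3), overlapped between the groups.

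Receptors of the tumour necrosis factor superfamily leaned higher, with 12 higher and 4 lower sites over 7 genes. TNFRSF19, a receptor known from mouse hair follicles, was higher at all 5 of its intron sites, of which 4 lay close together on scaffold NW_006724458_1. Averaged over the 5 sites, its level was 92.2, 91.6 and 94.4% in high OC and 80.4, 71.6 and 69.6% in low OC, or 92.7 ± 1.5% and 73.9 ± 5.7% (SD, n = 3). Read counts at 48707634 and 48707669 were identical in every sample, so these do not count as separate observations. TNFRSF4, the T cell costimulator OX40, was higher at its promoter site, at 92, 92 and 100% against 88, 83 and 75%, and the groups there were separated by only 4 points. TNFRSF11A, the receptor for RANK ligand, was split. It was lower at a pair of intron sites at 7475284 and 7475287, which averaged 56.7 ± 5.6% against 80.2 ± 3.2%, and higher at 2 other sites, which averaged 61.0 ± 2.5% against 48.3 ± 2.5%.

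Ligand genes were mostly lower in high OC, and 6 of their 12 lower sites were in chemokine genes. CCL17, a chemokine that attracts T cells to inflamed skin in humans and mice, had 3 intron sites within 27 bases of scaffold NW_006725465_1, all lower. Averaged over them, the level was 66.3, 75.7 and 55.7% in high OC and 88.7, 100 and 88% in low OC, or 65.9 ± 10% and 92.2 ± 6.7% (SD, n = 3). The separation rests on 5 to 12 reads a site and sample, and 2 of the 3 sites are opposite strands of the same CpG. Across the 5 listed chemokine genes, 6 sites were lower and 1 was higher. CXCL12, CXCL13 and CCL5 had 1 lower site each, and CXCL14, a chemokine that epithelia make constitutively, had the higher one. Both listed chemokine receptors, CCR6 and CCR10, which guide lymphocytes to epithelia, had 1 higher site each.

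The ligand genes TNFSF12 and TNFSF13 each had 1 listed promoter site on scaffold NW_006725366_1, with no methylated read in any high OC sample. TNFSF12, which encodes TWEAK, was at 0% in all high OC samples and at 10, 8 and 18% in low OC at position 2190086. TNFSF13, which encodes the B cell factor APRIL, was at 0% in all high OC samples and at 6, 7 and 17% in low OC at position 2197951. Reads ran from 7 to 26 at the first and from 6 to 18 at the second, and each low OC level came from 1 or 2 methylated reads. In high OC sample 3, 0 of 26 reads at TNFSF12 allows a level of up to 11.5%, and 0 of 14 reads at TNFSF13 allows up to 21.4%. With TNFSF8, lower at an intron site, all 3 listed ligands of this superfamily were lower. The remaining ligands were IL16 and IL17C, lower at their 1 and 2 sites, and CSF1, higher at both of its sites.

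Among the surface antigens, promoter sites of CD82, CD83 and CD300LG were higher in high OC and that of CD300A was lower. CD83, a marker of mature dendritic cells, was at 31, 31 and 44% in high OC and at 8, 13 and 15% in low OC at its promoter site, with 9 to 16 reads. The group means were 35.3 ± 7.5% and 12 ± 3.6% (SD, n = 3). The promoter site of CD82, a tetraspanin, was at 10, 17 and 10% against 0% in all low OC samples. At the deepest of the low OC samples, 0 of 16 reads allows a level of up to 18.8%, which is above each of the high OC levels. CD300LG, a receptor of endothelium, was at 21, 30 and 27% against 13, 14 and 17% at its promoter and, in the opposite direction, at 38, 60 and 69% against 92, 77 and 100% at an exon site. CD300A, an inhibitory receptor of leukocytes, was at 62, 55 and 60% against 78, 71 and 80%.

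CD6, a T cell receptor for the adhesion protein ALCAM, had 5 listed sites. It was higher at its 3 exon sites, which averaged 53.1 ± 2.5% in high OC and 30.3 ± 9.4% in low OC. The gene was lower at its 2 intron sites, which averaged 41.0 ± 4.8% against 55.7 ± 1.0% (SD, n = 3). An exon site at 3228340 and an intron site at 3228283, 57 bases apart, differed in opposite directions. CD4, the T helper coreceptor, was named after its values were seen, and a pair of intron sites 19 bases apart averaged 100, 91.0 and 91.0% in high OC and 67.0, 66.5 and 54.5% in low OC. Its remaining site, in an intron at 773815, was lower in high OC, at 91, 89 and 89% against 100% in all low OC samples.

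The 3 intracellular sensors split by gene. NLRC5, a transactivator of MHC class I genes, was higher at all 4 of its sites, with means of 93.2, 95 and 92.2% in high OC and 79.5, 78.8 and 73.2% in low OC. Its promoter site at 17048449 was at 86, 80 and 78% against 60, 62 and 62%, with tight groups, 81.3 ± 4.2% and 61.3 ± 1.2% (SD, n = 3), but on only 5 to 13 reads. NLRP2, a member of the inflammasome sensor family, was lower at its promoter site, at 50, 33 and 53% against 59, 88 and 80%. That site was also annotated to an uncharacterised gene, and the groups there were 6 points apart at their nearest. NLRX1, a mitochondrial member of the family, was lower at 1 exon site.

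TRAF3, the TRAF adaptor that restrains noncanonical NF-κB signalling, had the most listed sites of any gene that was lower throughout. Its 7 sites lay on scaffold NW_006726265_1, 4 of them in an intron between 468691 and 468740. Averaged over all 7, the level was 79.9, 75.7 and 76.4% in high OC and 93.0, 98.0 and 100% in low OC, or 77.3 ± 2.2% and 97.0 ± 3.6% (SD, n = 3). The low OC samples were thus at or near full methylation, and the high OC samples lay 19.7 points below. At 485273, the only site with at least 10 reads in every sample, the levels were 83, 89 and 83% in high OC and 93, 100 and 100% in low OC, which is closer. The largest differences were at 468691, at 73, 50 and 67% against 86, 100 and 100%, and at 468700, at 64, 67 and 50% against 79, 100 and 100%. At 3 sites all low OC samples were at 100%. Reads ran from 5 to 30, and the sites at 468691, 468700 and 468740 had identical read counts in every sample, so they do not count as separate observations. A CHG cytosine just before the first of these sites, at 468629, differed the other way, at 18, 9 and 14% in high OC and at 0% in all low OC samples. It had only 7 to 11 reads, and 0 of 11 reads in low OC sample 2 allows a level of up to 27.3%, above each high OC level.

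TRAF2, the adaptor that links tumour necrosis factor receptors to NF-κB and JNK, also had 7 sites but was split. Its 4 higher sites averaged 99.1 ± 0.8% against 82.9 ± 2.7%, and its 3 lower sites averaged 69.9 ± 6.0% against 91.3 ± 0.9% (SD, n = 3). The exon site at 9848349 was the largest of these, at 50, 31 and 33% in high OC and at 75, 76 and 71% in low OC, on 12 to 24 reads. With TRAF4, lower at 1 exon site, the TRAF adaptors proper held 4 higher and 11 lower sites. The kinases JAK1 and JAK3 had 1 site each, JAK1 lower by 23.3 points and JAK3 higher by 18.7 points.

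The SOCS and TNFAIP genes, grouped by name as feedback inhibitors, were few, and 3 of their 5 sites were in promoters. SOCS1, an inhibitor of JAK kinases, was at 20, 29 and 38% in high OC and at 0% in all low OC samples at a promoter and exon site at position 7013869. Only 5 to 8 reads stood behind each value, so that 1, 2 and 3 methylated reads made up the high OC levels, and 0 of 5 reads in low OC sample 2 allows a level of up to 60.0%. TNFAIP3, the A20 enzyme that ends NF-κB signalling, was higher at both intron sites. At 30525398 it was at 69, 55 and 62% against 33, 35 and 17%, and at 30531186 at 100% in every high OC sample against 82, 82 and 89%. TNFAIP1, which is in this group by its name and is known as an adaptor of a ubiquitin ligase, was lower at its promoter site, at 0, 0 and 3% against 14, 12 and 10% on 14 to 31 reads. TNFAIP8L2, a brake on T cell and toll-like receptor signalling in mice, was lower too, at 67, 64 and 45% against 85, 83 and 80%.

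Among the transcription factors, the calcium-responsive NFATC genes carried 22 of 30 sites, 13 higher and 9 lower. NFATC1, with 10 intron sites on scaffold NW_006725832_1, had the most sites of any member and was split 5 to 5. Its largest difference was at 3772018, at 100, 80 and 83% in high OC and at 33, 21 and 67% in low OC, where low OC sample 3 lay far above its group's other samples. The 3 sites at 3784398, 3784406 and 3784419 were at 0% in every high OC sample and averaged 11.7 ± 4.5% in low OC (SD, n = 3). Read counts at 3784398 and 3784419 were identical in every sample, so these do not count as separate observations. Each of their low OC levels came from 1 to 3 methylated reads. All 3 sites lie within 21 bases and may share reads. The sites at 3799060, 3799144 and 3800060 were at 100% in every high OC sample, and at 83 to 92% in low OC. The first 2 of these had identical levels and reads in every sample and are 1 observation.

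NFATC2 had 9 intron sites on scaffold NW_006728129_1, 5 higher and 4 lower. At 10545703, 10545708 and 10545725, within 22 bases, the high OC mean of 95.9 ± 3.6% stood against 73.4 ± 2.0% in low OC (SD, n = 3). The 4 lower sites, spread through the gene, averaged 33.3 ± 2.5% against 49.1 ± 1.9%. NFATC3 and NFATC4 were higher at their 2 and 1 sites. The interferon regulatory factors IRF2, IRF4, IRF5 and IRF8 held 6 higher sites and 1 lower. IRF4, required for plasma cells, was named after its values were seen, and its 3 intron sites within 94 bases averaged 35.7, 25.3 and 30.0% in high OC and 2.67, 8.33 and 16.0% in low OC. RELB, of the noncanonical NF-κB route, was higher at 1 exon site. No STAT, toll-like receptor or interferon gene was on the CpG list.

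Across all roles, 21 of the 178 sites (11.8%) were in promoters, beside 14.6% of all listed CpG sites that name a gene. Exons held 49 sites (27.5%, beside 30.9%) and introns held 124 (69.7%, beside 66.2%), some sites having more than 1 annotation. Promoter sites were higher in high OC at 14 of 21 (66.7%), beside 65.8% of all listed promoter sites. Exon sites were higher at 32 of 49 (65.3%, beside 56.4%) and intron sites at 66 of 124 (53.2%, beside 50.5%). The 21 promoter sites belonged to 17 genes, had a median level of 34.3%, lower than the 71.3% over all member sites, and 10 of them were between 20 and 80%. The 14 higher promoter sites averaged 59.3, 55.4 and 57.7% in high OC and 36.3, 33.1 and 37.1% in low OC. The 7 lower ones averaged 27.7, 21.7 and 25.6% against 40.7, 43.1 and 44.9%. No promoter site belonged to a signal transducer or a transcription factor.

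**Figure D4:**
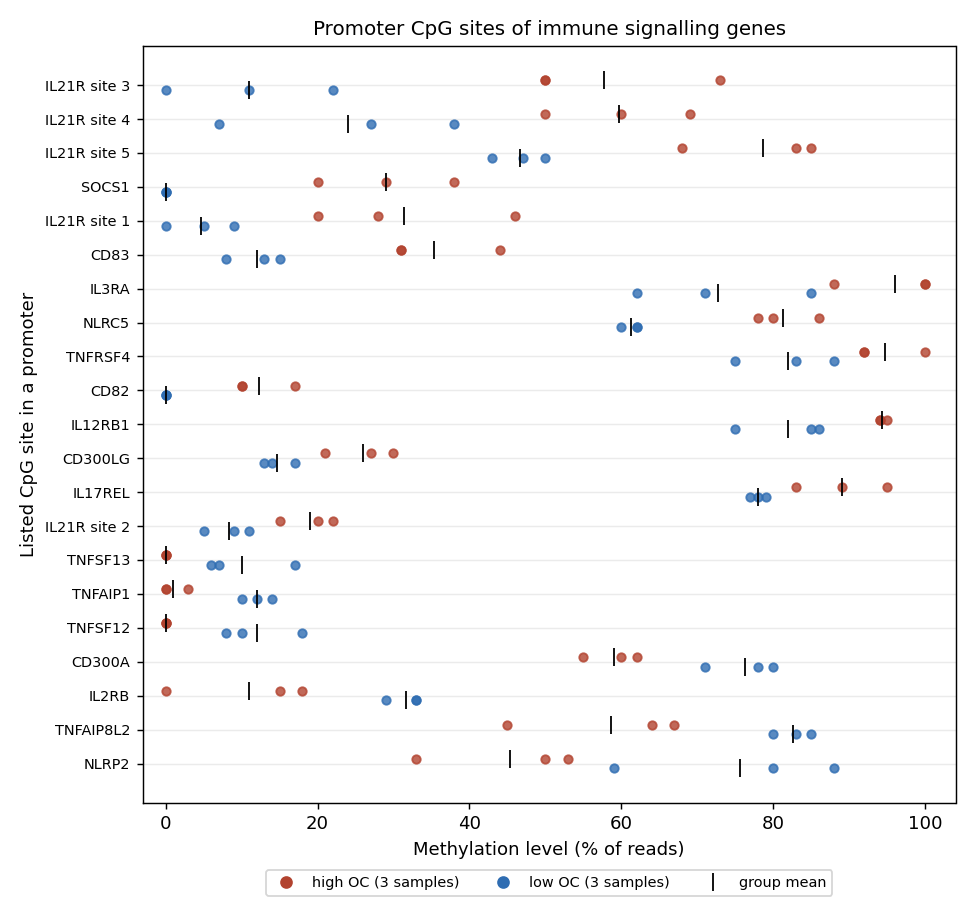
Methylation level (% of reads) at the 21 listed promoter CpG sites, ordered by difference, with a point for each sample and a bar for each group mean; IL21R sites are numbered by position. The top 14 sites are higher in high OC, led by IL21R site 3 at 46.7 points, and TNFSF12 and TNFSF13 among the lower ones are at 0% in all high OC samples.

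Close sites of 1 gene mostly shared a direction. Of 43 neighbouring pairs at most 200 bases apart, 34 differed in the same direction and 9 in opposite directions, and 8 pairs had identical coverage in all samples. More pairs may share reads. At CCL17, 16661346 and 16661372 had 9 and 10 reads in high OC sample 1 and identical counts in the other samples. Of 54 neighbouring pairs further apart, 30 shared a direction. Of the 35 genes with at least 2 sites, 15 kept to 1 direction. The same shares among other listed genes are not given here, so these counts cannot be read as particular to this set. A group was at 0% or at 100% in all 3 samples at 45 sites (25.3%), beside 26.8% of the other listed CpG sites that name a gene: high OC at 0% at 7, low OC at 0% at 7, high OC at 100% at 18 and low OC at 100% at 13.

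Few cytosines outside CpG were listed at genes of the same name pattern. In the CHG context 7 sites lay in 7 genes, 6 of them among the 81 with a listed CpG site, and 5 were higher in high OC, beside 50.9% of all listed CHG sites that name a gene. In the CHH context 17 sites lay in 15 genes, 9 of them among the 81, and 8 were higher, beside 51.4%. The sequence of the sampled whales at these positions was not analysed here, so a site listed as CHG or CHH may be a CpG in some of them, and the levels above 50% in particular cannot be read as methylation outside CpG. JAK3, a kinase of the common gamma chain receptors, was higher at its CHG site at 1707745, at 60, 59 and 58% against 36, 43 and 47%, as at its nearby CpG site at 1707759. TNFRSF21 was lower at a CHG site, at 12, 17 and 50% against 57, 100 and 71%, while its CpG site was higher. IL25, an epithelial cytokine of type 2 immunity with no listed CpG site, had a CHG site in its promoter at 94, 91 and 55% against 38, 33 and 29%. CD5 and IL31RA, a receptor chain for an itch cytokine that is likewise outside the 81, were higher at a CHH site in their promoters, CD5 at 94, 89 and 86% against 64, 76 and 72% and IL31RA at 50, 54 and 59% against 32, 41 and 28%.

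Partners of these pathways under other names were listed too. Of 86 such genes, 34 were on the CpG list with 103 sites, 64 higher (62.1%, beside 52.9% of all listed sites that name a gene) and 39 lower, and 18 genes leaned higher, 13 lower and 3 were equal. PLCG2, the phospholipase that B cell receptors use, was higher at all 10 sites, with means of 90.5 ± 1.2% in high OC and 71.9 ± 4.6% in low OC (SD, n = 3). LTA, which encodes lymphotoxin alpha, was higher at all 4 sites, at 96.3 ± 1.8% against 77.9 ± 3.3%. BCL3, an atypical IκB protein, was lower at all 3 sites, at 18.3 ± 2.6% against 37.9 ± 8.3%. PTPN6 and LCP2, a phosphatase and an adaptor of antigen receptor signalling, were lower at both of their sites.

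Genes that mark the cell types of skin were on the list too. Of 20 leukocyte markers, 4 were listed, and 2 of them, CD4 included, are also members. These 4 held 7 higher (63.6%) and 4 lower sites, beside 52.9% higher among all listed CpG sites that name a gene. Of 19 keratinocyte markers, 7 were listed with 26 higher (41.9%) and 36 lower sites, of which PKP3 accounted for 1 and 22. One of 7 fibroblast markers and 1 of 5 melanocyte markers were listed, each with 1 lower site. The share of all genes that were listed is not given here, so the numbers of markers or pathway partners listed cannot be read as many or few. The part of the share of each cell type in the differences at the immune signalling genes was not tested.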

How the data were processed

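Per the labels' protocols, MspI digestion and bisulfite treatment of skin DNA from 6 samples (3 high OC, 3 low OC) preceded sequencing. Bismark appears in the submitters' processing notes with no version, and neither build nor annotation is given in the sources used here. The deposited list holds, per the file headers, a level as a fraction to 2 decimals and a read count for each site and sample, the authors' difference of group means (a score from -1 to 1) and the authors' p-value. The list was selected on these samples, so no test was run on it, and an exact permutation test of 3 against 3 could not go below p = 0.1. Tables of unselected sites held 0 member sites and were not used.

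Levels were multiplied into percent, averaged per sample over a gene's listed sites, and summarised as mean and SD over 3 samples per group. Samples were numbered in accession order. Scaffold positions are the deposited starts, with no assembly named and no statement of whether counting begins at 0 or 1. Intervals are exact (Clopper-Pearson) at 95%, and a count of 0 allows 3 reads of the total. Reads carry no molecular identifiers, so these cover counting error only. Named genes were those with a listed promoter site, the 12 with the most sites (ties kept), any with a site of at least 50 points, and the gene with the most sites in each role, 28 in all, and the CHG, CHH and partner genes, JAK1, JAK3 and the exceptions stated were chosen after their values were seen. Members, gene lists and alternatives were chosen with earlier results of these data known. Of 81 names, 74 matched a RefSeq gene table of the fin whale. CD300A, CD7, CSF2RB, IL3RA, NLRP2, TNFSF12 and TNFSF13 did not match. Calculations used Python 3.11.15, numpy 2.4.6, pandas 2.3.3 and scipy 1.17.1. Only the matching of names and roles and the counting of members and directions were tested on simulated data. Alternatives were minimums of 10 and 20 reads, 1 site per 1 kb, differences of at least 33 points, levels near 0, 50 or 100% left out, promoter or exon sites only, adaptor names left out, coverage weighting, and each sample left out. Results for some listed genes are not reported here, and the plot of all sites leaves 1 member out.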

Additional observations from a re-analysis of the deposited data

How the results depend on the processing

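The share of sites higher in high OC, 57.3%, ranged from 50% at the 16 sites differing by at least 33 points to 63.5% in promoters or exons, and was 71.4% at the 7 sites where every sample had 20 reads or more. With 1 sample left out in turn it was 56.0 to 59.0%. Sites whose difference then fell below 10 points were dropped, leaving 166 to 172. No site could change direction, since the groups overlapped at none, so this range reflects only which sites were dropped. The promoter share, 11.8%, was 28.6% at those 7 sites and 10.1 to 12.4% with a sample left out. Over 28 named genes, 285 of 329 alternative values of the mean difference stayed within the spread between samples, 30 moved further and 14 changed sign. IL21R was among those that moved, at 7.58 points with a minimum of 10 reads and 12.9 with 1 site per 1 kb against 20.7, as was TRAF3, at -12.7 with that minimum against -19.7. The sign changes were all in genes with sites in both directions. With a minimum of 10 reads per sample, the mean high minus low OC difference was 11.3 points for CD300LG (-11.3 with all sites), -11.3 for CD6 (7.80), -14.3 for NFATC1 (3.63) and -36.0 for TRAF2 (0.048). With at least 20 reads NFATC2 was at -19.0 (3.89). With 1 site per 1 kb, CD6 was at -2.11 and TRAF2 at -4.39. TRAF2 was at -36.0 where only sites of at least 33 points were kept and at -0.576 when weighted by coverage. With 1 sample left out, CD82 ranged from -2.33 to 4.72 (2.89) and TRAF2 from -1.24 to 1.40. These settings keep fewer sites or samples. Leaving out sites with levels near 0, 50 or 100% removed none. Counting sites of the same reads once and leaving out sites with only even coverage were chosen after seeing the data and gave shares of 56.2% and 57.8%. No paired analysis was possible because the labels give no replicate numbers shared between groups. Depth limits single sites: 56 of 178 had at least 10 reads in every sample.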
